A study of Homo sapiens with 54 samples.

Results

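DLD-1 is a human colorectal cancer cell line, and the libraries described here are of its 5-FU-resistant form, which the study obtained by passaging the cells in rising concentrations of 5-fluorouracil (5-FU). The comparison is between 3 libraries of resistant cells given 10 µM 5-FU for 24 h and then irradiated with X-rays at the dose set for this line (DL50 in the labels), and 3 libraries of resistant cells given 10 µM 5-FU for 24 h alone. The libraries were chosen by their labels alone and are 6 of the 54 of the series, which also holds sensitive DLD-1 cells and the sensitive and resistant forms of HCT-116 and HT-29, each under uracil, 5-FU, or 5-FU with irradiation. Resistant DLD-1 cells given 10 µM uracil for 24 h (3 libraries), the study's control treatment, are shown beside them. Per the study, resistant cells were maintained in medium with 5-FU at a higher concentration than the 10 µM given here. Whether that drug was withdrawn before the treatments is not given in the sources used here. The uracil libraries are therefore not known to be a baseline free of 5-FU. The protocol places a change of medium before irradiation. Whether dishes that were not irradiated had the same change, and how long after irradiation these cells were lysed, is not given in the sources used here, so the effects of the medium change and of the X-rays cannot be told apart. The resistant form is 1 selected population, and the replicates carry only a number in the labels. The methods call replicates biological without saying what separates them, so p-values measure the spread between these libraries, which may be technical in part.

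5-FU, a fluorinated uracil, inhibits the synthesis of thymidylate and is built into RNA and DNA. X-rays break both strands of DNA. Cells answer such breaks through the kinases ATM and ATR, which hold the cell cycle before S phase or before mitosis while the breaks are repaired. The arrest is reinforced by CDKN1A (p21), an inhibitor of cyclin-dependent kinases. In bulk RNA, a change in the share of cells in a cell cycle phase and a change in the RNA of each cell cannot be told apart.

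Total estimated counts of the 6 libraries were 39987113 to 74298700, and no pair of libraries agreed within sampling noise. Marker genes of a line were picked from this series, as high in the uracil libraries of its sensitive form and near 0 in the other sensitive lines. They set a library against the labels of those libraries and are no outside check. In each resistant DLD-1 library 16 of 17 DLD-1 markers reached 1 TPM (a level corrected for transcript length and library depth). Of the HCT-116 markers 0 or 1 of 46 did, and of the HT-29 markers 0 of 5. All 8 colorectal epithelial markers were at 1 TPM or more in each library with a summed level of 8603 to 8845 TPM under 5-FU and 9043 to 9440 TPM with irradiation. The summed level of 6 leukocyte markers was 0.842 to 2.87 TPM under 5-FU and 1.27 to 1.92 TPM with irradiation, where CD3D, CD3E and LYZ were at 0. That of 4 endothelial markers was 0.269 to 0.482 TPM and 0.633 to 0.842 TPM. Transcripts annotated as retained introns took 6.01% to 6.31% of TPM under 5-FU and 5.86% to 6.50% with irradiation, so the groups overlapped. One resistant uracil library, replicate 1, stood apart from the other two: its root mean square difference in log2 CPM (counts scaled to library size) was 0.28 and 0.25 from replicates 2 and 3, which differed from each other by 0.15. It was not irradiated and is not in the comparison, but it enters the shared estimate of spread. Its values are given for some genes only, and it can lie beside the irradiated libraries in others.

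Adding irradiation to 5-FU moved many genes by a small amount. Of 21814 genes tested, 839 passed an adjusted p of 0.01, which is 3.85%; 527 (2.42%) were higher and 312 (1.43%) were lower with irradiation. The median fold was 1.23 for the higher genes and 1.21 for the lower genes, and the median of all genes tested was a log2 fold change of 0.01. A change of at least 2-fold was reached by 31 genes (0.142%), 30 higher and 1 lower. Of the 839 genes, 773 had TPM values that did not overlap between the 6 libraries; over all genes tested the values did not overlap in 15.4% towards higher and 9.7% towards lower. The count was 1797 in the fit without resistant uracil replicate 1, which included all 839 genes. At an adjusted p of 0.05, 1881 genes (8.62%) passed. Leaving out 1 of the 6 compared libraries gave 346 to 428 genes for each of the 3 libraries under 5-FU and for irradiated replicates 1 and 2, and 661 without irradiated replicate 3.

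**Figure D1:**
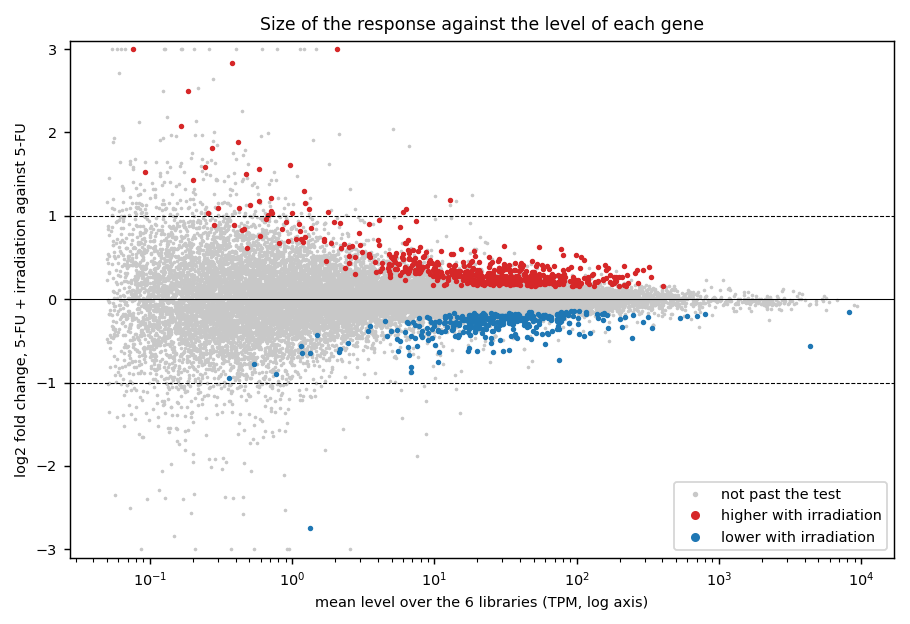
Log2 fold change with irradiation (y axis) against the mean level over the 6 resistant DLD-1 libraries (x axis, TPM, log scale); each point is a gene, red is higher and blue is lower past the test, and dashed lines mark 2-fold. The 839 coloured points lie mostly inside the 2-fold lines; 25 of 21519 genes drawn were beyond a log2 fold change of 3 and sit at the edge, and 295 genes under 0.05 TPM are not drawn.

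IL33 (chr9:6215786-6257983, GRCh38), an alarmin cytokine of epithelial cells, was at 7.78, 8.10 and 8.01 TPM under 5-FU and at 19.1, 17.2 and 16.9 TPM with irradiation. The groups did not overlap, and IL33 rose 2.28-fold (log2 fold change 1.19 ± 0.12 SE, adjusted p = 7.5e-06). In the uracil libraries it was at 15.7, 9.94 and 10.7 TPM, with replicate 1 the nearest to the irradiated libraries. PLAT, the tissue plasminogen activator, was at 4.76, 2.94 and 4.04 TPM under 5-FU and at 8.01, 7.97 and 8.43 TPM with irradiation. Its log2 fold change was 1.04 ± 0.15 SE (adjusted p = 0.0002), again with no overlap, and uracil replicate 1 was at 7.42 TPM.

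Other genes among the 15 largest rises were CTSE, an aspartic protease (1.61), the collagen gene COL1A1 (1.16), the collagen receptor gene MRC2 (1.08), the transglutaminase gene TGM2 (1.05), ZNF467 (1.04), RAET1L (0.92), the interleukin 36 antagonist gene IL36RN (0.92) and PRR9 (0.91), given as log2 fold changes. COL1A1 was 1 of the 2 fibroblast markers, of 6, that could be tested, and the only one to pass. The other had a log2 fold change of -0.26, and its TPM values did not overlap between the groups. The summed level of the 6 was 0.916 to 1.53 TPM under 5-FU and 2.37 to 3.14 TPM with irradiation. That sum includes COL1A1 itself, with a mean of 0.713 TPM and 1.77 TPM, in that order. COL3A1 and LUM were at 0 in all 3 libraries under 5-FU. The part of such cells in the COL1A1 result was not tested. AL359922.1 had 0 counts in each library under 5-FU and 70, 102 and 40 counts with irradiation, at least 18.5-fold higher against a floor of 3 counts per library, but it was at 1.26 to 2.64 TPM in the uracil libraries. Its reads were assigned by estimate. Uracil replicate 1 was above all 3 irradiated libraries for COL1A1 (2.06 TPM), ZNF467 (1.94 TPM) and RAET1L (2.87 TPM). It lay within their range for MRC2 (1.86 TPM), TGM2 (2.42 TPM) and IL36RN (1.10 TPM). For CTSE (0.732 TPM) and PRR9 (2.46 TPM) it lay below them.

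Among genes past the test with a mean above 20 TPM under 5-FU, the largest loss was in LINC02086, a long noncoding RNA gene on chromosome 17 (chr17:48646923-48707346, GRCh38). It was at 94.7, 91.3 and 91.2 TPM under 5-FU and at 58.4, 54.8 and 57.7 TPM with irradiation. The 2 groups were far apart, and the 3 uracil libraries (91.5, 89.4 and 87.9 TPM) lay with the 5-FU libraries. It had the lowest p of all genes tested, with a log2 fold change of -0.73 ± 0.04 SE (adjusted p = 2.4e-10), a 1.65-fold loss. Others among the 15 largest losses were LINC01089 (-0.87), AC110285.2 (-0.75), MAB21L4 (-0.64), THOC6, a subunit of the mRNA export complex TREX (-0.64), MCRIP1 (-0.63), HCFC1R1 (-0.63), HOXB8 (-0.63) and GNB1L (-0.62). AC078777.1 fell by 2.75 on the log2 scale from 1.38 to 3.21 TPM, and was the 1 gene with a loss of at least 2-fold.

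**Figure D2:**
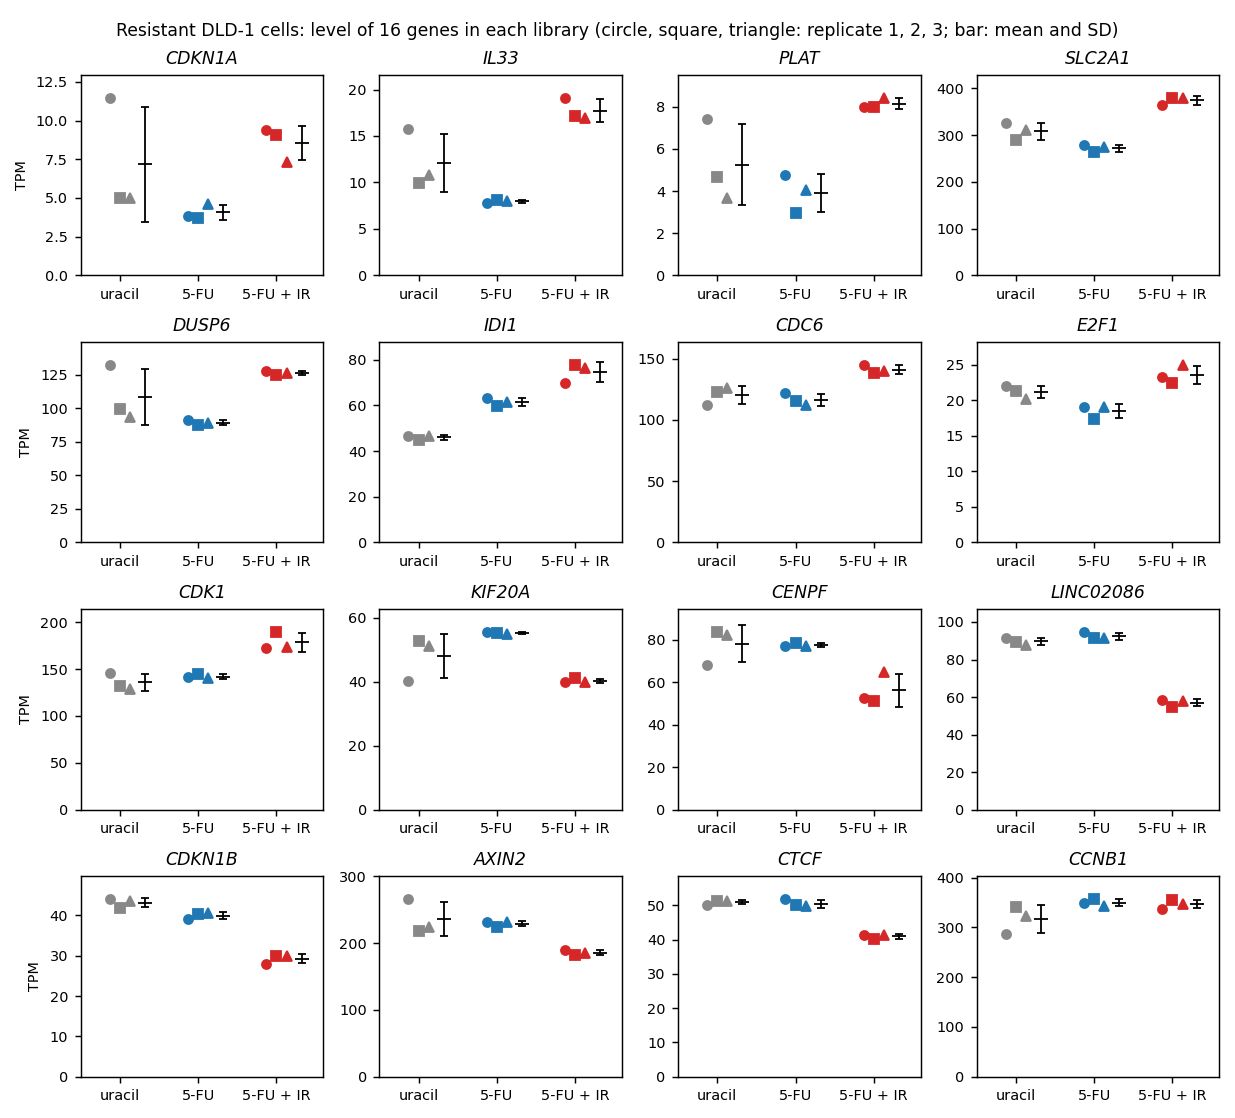
Level in TPM (y axes, from 0) of 16 genes in each resistant DLD-1 library under uracil (grey), 5-FU (blue) and 5-FU with irradiation (red); circles, squares and triangles are replicates 1, 2 and 3, and the black bars are mean and SD. CDKN1A, IL33, PLAT and DUSP6 are higher, and LINC02086, KIF20A, CDKN1B and CTCF lower, in all 3 irradiated libraries than in the 3 libraries under 5-FU, CCNB1 overlaps, and uracil replicate 1 lies near or above the irradiated libraries for CDKN1A, PLAT and DUSP6.

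LINC02086 lies in the HOXB cluster, which holds genes for homeodomain transcription factors that set position along the body axis, between HOXB9 and HOXB13. This neighbourhood was looked up after the values were seen. From HOXB1 to HOXB13 (chr17:48528526-48728750), 17 genes were tested and 16 had a negative log2 fold change. Past the test 6 were lower, as were 1.43% of all genes tested, and the median of the 17 was -0.27. Within 300000 bases on either side 8 genes were tested, the lowest adjusted p was 0.22, and their median was 0.05. HOXB8 was at 36.7, 33.3 and 38.4 TPM under 5-FU and at 24.4, 23.8 and 25.7 TPM with irradiation (log2 fold change -0.63 ± 0.07 SE, adjusted p = 1.0e-05). HOXB6 fell by 0.42, HOXB9 by 0.36, HOXB4 by 0.45 and HOXB5 by 0.27 on the log2 scale. The uracil libraries did not lie with the irradiated ones for HOXB8, at 37.9, 52.1 and 46.7 TPM, whereas for HOXB4 they were at 15.2, 12.1 and 11.8 TPM and overlapped the irradiated libraries (12.4, 10.8 and 14.2 TPM). The other HOXB genes tested did not pass: HOXB2 had a log2 fold change of -0.27 (adjusted p = 0.57), HOXB3 one of -0.10 (adjusted p = 0.3), HOXB7 one of -0.24 (adjusted p = 0.015) and HOXB13 one of -0.01 (adjusted p = 0.95). Antisense genes overlap several of these genes, and reads that fit more than 1 transcript were divided by estimate.

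A pair of inhibitors of cyclin-dependent kinases went opposite ways. CDKN1A (chr6:36676460-36687337, GRCh38) was at 3.86, 3.72 and 4.61 TPM under 5-FU and at 9.36, 9.04 and 7.30 TPM with irradiation. It rose 2.11-fold (log2 fold change 1.08 ± 0.21 SE, adjusted p = 0.0028), without overlap. Uracil replicate 1 was at 11.5 TPM, above the irradiated libraries, and uracil replicates 2 and 3 were both at 5.01 TPM. CDKN1B (p27), which restrains entry into S phase, was at 39.0, 40.3 and 40.5 TPM under 5-FU and at 28.0, 30.0 and 29.9 TPM with irradiation. It fell by 0.44 on the log2 scale (adjusted p = 3.0e-05) and was at 41.9 to 44.1 TPM in the uracil libraries. CDKN1A lost its call when any of 5 of the 6 libraries was left out (all but irradiated replicate 3; adjusted p up to 0.02), and CDKN1B kept its call in all 6 fits.

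Of 31 tested p53 target genes, 4 rose and 0 fell, against 3.85% of all genes called in either direction, and the list's median log2 fold change was 0.09. Besides CDKN1A these were PLK2, a kinase of the stress response (0.40, adjusted p = 3.0e-05), PLK3 (0.32, adjusted p = 0.007) and TNFRSF10B, a death receptor (0.16, adjusted p = 0.003). MDM2, a ubiquitin ligase, was at 33.5, 35.1 and 35.8 TPM under 5-FU and at 36.6, 35.5 and 36.6 TPM with irradiation, with a log2 fold change of -0.04 ± 0.05 SE (adjusted p = 0.74). The TPM groups overlapped, and the mean of TPM was higher with irradiation while the normalized count, which the fold change rests on, was not. GDF15 had a log2 fold change of 0.16 and an adjusted p of 0.027. The fit without resistant uracil replicate 1 called 8 of the list higher and 0 lower; with 1 compared library left out it called 1 to 3 higher. The list of BCL2 family and death receptor genes had 2 of 19 higher, TNFRSF10D, a decoy receptor (0.35), and BID, a proapoptotic BCL2 family member (0.27), and 0 lower.

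Of 32 genes of DNA replication and G1/S entry tested, 9 rose (28.1%, against 2.42% of all genes), 0 fell and 23 did not pass. A positive log2 fold change was held by 29, against 51.6% of all genes. The median was 0.15 against 0.01 for all genes. E2F1, the transcription factor that drives S phase genes, was at 19.0, 17.3 and 19.1 TPM under 5-FU and at 23.2, 22.4 and 25 TPM with irradiation (log2 fold change 0.33 ± 0.05 SE, adjusted p = 0.00016). The 2 groups did not overlap. CDC6, which loads the replicative helicase, was at 122, 115 and 112 TPM under 5-FU and at 145, 138 and 140 TPM with irradiation (log2 fold change 0.29, adjusted p = 0.0014). The exonuclease gene EXO1 (0.29), the helicase subunit gene MCM3 (0.20), CCNE1, the cyclin of S phase entry (0.29), CHAF1A, a histone chaperone subunit (0.17), E2F2 (0.27), GINS2, a subunit of the replicative helicase (0.25), and MCM10, a replication initiation factor (0.23), were the others. The TPM values of E2F2 and MCM10 overlapped between the groups although their counts passed the test. TYMS, the thymidylate synthase that 5-FU inhibits, had a log2 fold change of -0.03 (adjusted p = 0.86). The fit without resistant uracil replicate 1 called 17 higher and 0 lower, and with 1 compared library left out 2 to 9 were higher and 0 lower.

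The promoters of 4 of the called G1/S genes are shown because they hold an E2F site within the 250 bases before the start, in capitals (TTTCCCGC or TTTGGCGC on either strand). Of 28 members with a promoter in the table used, 12 held such a site, as did 4 of the 9 called; of 27305 promoters in all, 1.96% did. The sequences are from RefSeq on GRCh38.p14, 5′ to 3′ towards the start. The match is a description of the letters only.
E2F1, chr20:33686386-33686635, - strand: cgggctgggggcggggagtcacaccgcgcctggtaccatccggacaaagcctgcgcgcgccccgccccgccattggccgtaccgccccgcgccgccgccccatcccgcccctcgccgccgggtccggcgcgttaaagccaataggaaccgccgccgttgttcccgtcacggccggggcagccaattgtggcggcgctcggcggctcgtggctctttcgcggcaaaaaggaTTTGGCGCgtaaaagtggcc
E2F2, chr1:23531234-23531483, - strand: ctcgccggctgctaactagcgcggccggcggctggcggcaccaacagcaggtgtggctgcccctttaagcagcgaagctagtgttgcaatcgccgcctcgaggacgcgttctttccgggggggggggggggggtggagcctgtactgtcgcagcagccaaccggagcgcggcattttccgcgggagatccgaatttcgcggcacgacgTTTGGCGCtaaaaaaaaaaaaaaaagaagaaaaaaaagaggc
MCM3, chr6:52284743-52284992, - strand: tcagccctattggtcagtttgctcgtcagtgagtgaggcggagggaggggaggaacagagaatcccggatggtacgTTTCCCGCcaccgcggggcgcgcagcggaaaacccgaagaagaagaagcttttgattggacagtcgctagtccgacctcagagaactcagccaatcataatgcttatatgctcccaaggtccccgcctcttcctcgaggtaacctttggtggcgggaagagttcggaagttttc
GINS2, chr16:85688955-85689204, - strand: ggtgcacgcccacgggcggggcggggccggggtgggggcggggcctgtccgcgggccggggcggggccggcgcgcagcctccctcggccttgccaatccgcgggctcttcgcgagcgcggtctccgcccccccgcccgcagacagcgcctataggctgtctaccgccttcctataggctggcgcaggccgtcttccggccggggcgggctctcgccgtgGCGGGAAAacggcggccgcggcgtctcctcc
The match began 20 bases before the start in E2F1, 42 in E2F2, 174 in MCM3 and 31 in GINS2.

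Genes of G2 and mitosis went both ways. Of 35 tested, 2 rose and 6 fell (22.9% called, against 3.85% of all genes). In 7 the log2 fold change was positive, against 51.6% of all genes, and the median was -0.08. KIF20A, a kinesin needed to finish cell division, was at 55.5, 55.1 and 54.8 TPM under 5-FU and at 39.9, 41.0 and 40.0 TPM with irradiation (log2 fold change -0.48 ± 0.08 SE, adjusted p = 0.00041). Uracil replicate 1 was at 40.0 TPM and the other two at 52.8 and 51 TPM. The kinetochore genes CENPF (-0.38) and CENPE (-0.36), the proliferation marker MKI67 (-0.33), DLGAP5 (-0.28) and ASPM (-0.18), both of the mitotic spindle, fell as well. CDK1, the kinase that starts mitosis, was higher: 141, 145 and 140 TPM under 5-FU against 172, 190 and 173 TPM with irradiation (log2 fold change 0.35 ± 0.05 SE, adjusted p = 0.00019). UBE2C, which supplies ubiquitin to the anaphase-promoting complex, was at 201, 203 and 208 TPM and then at 253, 249 and 249 TPM (log2 fold change 0.28, adjusted p = 0.0043). CCNB1, the cyclin partner of CDK1, overlapped between the groups (log2 fold change -0.03, adjusted p = 0.82), and PLK1 had a log2 fold change of -0.12 (adjusted p = 0.23). With 1 compared library left out, 1 to 2 of the list were higher and 3 to 5 lower; without resistant uracil replicate 1 these counts were 3 and 9.

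A CHR element, a short motif of cell cycle promoters (TTTGAA or TTCGAA on either strand), was within 250 bases before the start of 16 of 29 members with a promoter in the table, against 14.6% of all promoters. Of 7 called members with a promoter 4 held it: CDK1, which rose, and MKI67, ASPM and DLGAP5, which fell. The promoters of CDK1, MKI67 and ASPM are shown with it in capitals to set them side by side.
CDK1, chr10:60778081-60778330, + strand: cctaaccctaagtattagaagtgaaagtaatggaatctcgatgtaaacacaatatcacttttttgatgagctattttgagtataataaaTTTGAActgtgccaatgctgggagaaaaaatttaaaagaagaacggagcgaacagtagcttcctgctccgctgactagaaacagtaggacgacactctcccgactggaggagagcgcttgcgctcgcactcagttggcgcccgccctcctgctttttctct
MKI67, chr10:128126424-128126673, - strand: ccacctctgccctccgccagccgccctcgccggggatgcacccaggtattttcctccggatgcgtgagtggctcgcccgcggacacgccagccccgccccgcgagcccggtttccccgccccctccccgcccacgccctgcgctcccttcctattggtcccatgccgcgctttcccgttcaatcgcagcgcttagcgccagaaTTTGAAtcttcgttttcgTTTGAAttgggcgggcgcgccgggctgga
ASPM, chr1:197146670-197146919, - strand: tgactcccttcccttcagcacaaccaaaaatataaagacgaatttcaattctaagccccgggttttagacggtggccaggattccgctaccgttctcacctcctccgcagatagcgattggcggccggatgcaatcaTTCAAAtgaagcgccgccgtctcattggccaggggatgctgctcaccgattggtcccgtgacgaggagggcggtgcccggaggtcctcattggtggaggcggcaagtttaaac
The match began 161 bases before the start in CDK1, 47 and 29 in MKI67, and 113 in ASPM.

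Among 33 genes of DNA damage signalling and double-strand break repair, 3 rose and 2 fell, with a median of 0.04. The share called was 15.2%, against 3.85% of all genes. XRCC2, of homologous recombination, was at 15.6, 15.7 and 16.7 TPM under 5-FU and at 19.6, 19.3 and 22.4 TPM with irradiation (log2 fold change 0.34, adjusted p = 0.0012). FANCD2, of interstrand crosslink repair, also rose (0.20), and the TPM values of FANCD2 overlapped between the groups. NBN, a subunit of the complex that senses breaks (-0.28), and MDC1, the adaptor at marked chromatin (-0.22), fell, MDC1 with overlapping TPM values. Histone genes had the lowest median of all lists, -0.28, and 2 of 18 tested (11.1%) passed, both lower: the linker histone gene HIST1H1C (-0.41) and HIST1H2BK (-0.35). Most replication-dependent histone mRNAs lack a poly(A) tail, which limits their measurement, and near-identical copies share reads.

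Genes of the immediate early response and of growth factor feedback rose in 7 of 33 and fell in 0, with a median of 0.17. The share higher was 21.2%, against 2.42% of all genes. DUSP6, a phosphatase that turns off ERK, was at 90.9, 87.7 and 89.1 TPM under 5-FU and at 128, 125 and 126 TPM with irradiation (log2 fold change 0.50 ± 0.07 SE, adjusted p = 0.00019). Uracil replicate 1 was at 132 TPM, above all 3 irradiated libraries, and replicates 2 and 3 at 99.4 and 93.5 TPM. The other members called were the phosphatase genes DUSP5 (0.62) and DUSP4 (0.48), the feedback inhibitor SPRY4 (0.55), TIPARP (0.34), the AP-1 subunit JUNB (0.32) and IER3 (0.22). In a list put together after the values were seen, the EGFR ligands AREG (0.32), HBEGF (0.51) and BTC (0.43) rose, 3 of 10 tested, and 0 fell. Without resistant uracil replicate 1, 14 of the 33 were higher; with 1 compared library left out, 3 to 6 were.

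Hypoxia-induced and glycolytic genes had 7 of 27 higher (25.9%, against 2.42% of all genes) and 0 lower. A positive log2 fold change was held by 25 of 27, against 51.6% of all genes, with a median of 0.15. SLC2A1, the glucose transporter GLUT1, was at 278, 264 and 274 TPM under 5-FU and at 364, 379 and 380 TPM with irradiation. It rose 1.31-fold (log2 fold change 0.39 ± 0.04 SE, adjusted p = 3.7e-06), and the uracil libraries were at 290 to 326 TPM. SLC2A3 (0.46), PFKFB4, a regulator of glycolysis (0.51), ADM, the adrenomedullin gene (0.45), AK4 (0.24), the hexokinase gene HK2 (0.24) and the enolase gene ENO2 (0.24) were the others. With 1 compared library left out, 3 to 6 were higher; without resistant uracil replicate 1, 11 were.

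Of 32 genes of cholesterol and fatty acid synthesis and uptake, 6 rose and 1 fell, with a median of 0.08. The share called was 21.9%, against 3.85% of all genes. IDI1, an isomerase of sterol synthesis, was at 63.2, 59.8 and 61.6 TPM under 5-FU and at 69.8, 77.8 and 76.4 TPM with irradiation (log2 fold change 0.28 ± 0.05 SE, adjusted p = 0.00059). The 3 uracil libraries, at 44.9 to 46.8 TPM, lay below both groups. The enzymes of sterol synthesis FDFT1 (0.22) and SQLE (0.17) and the fatty acid enzyme ACACA (0.18, with overlapping TPM values) also rose, and the desaturase FADS2 (-0.34) fell. With 1 compared library left out, 2 to 5 rose and 0 to 1 fell; without resistant uracil replicate 1, 10 rose and 1 fell.

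Among WNT targets and intestinal stem cell genes, 1 of 18 rose and 4 fell (27.8% called, against 3.85% of all genes), and the median was -0.01. AXIN2, a feedback inhibitor of WNT signalling, was at 231, 224 and 232 TPM under 5-FU and at 189, 182 and 185 TPM with irradiation (log2 fold change -0.33, adjusted p = 0.00036). ASCL2 (-0.22) and SOX9 (-0.18), transcription factors of crypt cells, and TNFRSF19 (-0.23) also fell, and CD44, an adhesion receptor, rose (0.40). With 1 compared library left out, 1 to 2 fell. Of intestinal differentiation genes, MUC13, a transmembrane mucin (0.51, adjusted p = 1.0e-05), and CA2, a carbonic anhydrase (0.29), were 2 of 14 that rose. Of 16 epithelial-mesenchymal transition genes 2 rose, among them TGFB1 (0.41), the TGF-beta cytokine.

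In the lists that follow, apart from the last 2, few members passed, and 3.85% of all genes did. Interferon-stimulated genes had 3 of 35 higher, OAS1, an antiviral sensor (0.62), OAS3 (0.20) and IRF7 (0.26), and a median of 0.03. NF-kB targets had 2 of 17 higher, NFKB2 (0.29) and ICAM1, an adhesion molecule (0.30), and 0 lower; DESeq2 called 2 higher and 2 lower, and the fit without resistant uracil replicate 1 called 3 and 4. ICAM1 lost its call with any 1 of the 6 compared libraries left out. Of 23 genes of 5-FU metabolism and nucleotide supply, 1 rose, PPAT, the first enzyme of purine synthesis (0.20), and 1 fell. The unfolded protein response had 1 of 15 higher (6.67%; CRELD2, 0.19) and the NRF2 targets 1 of 25 lower (4%; FTH1, the ferritin heavy chain, -0.15), shares near that of all genes. No member was called at an adjusted p of 0.01 in edgeR among 17 heat shock chaperones, 27 ATF4 targets, 29 ribosome biogenesis genes, 13 mitochondrially encoded mRNAs or 15 KRAB zinc finger genes. DESeq2 called 1, 2, 0, 0 and 0 of these lists, in that order, and at an unadjusted p under 0.05 edgeR gave 6, 8, 2, 0 and 1. Such a p was held by 4714 of all 21814 genes tested. The last 2 lists were put together after the values were seen. The NKG2D ligand genes ULBP2 (0.55), RAET1E (0.44) and RAET1L (0.92) rose, 3 of 8 (37.5%, against 2.42% of all genes). The chromatin loop factors CTCF (-0.33) and the cohesin subunits STAG1 (-0.40) and RAD21 (-0.18) fell, 3 of 12 (25%, against 1.43% of all genes).

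**Figure D3:**
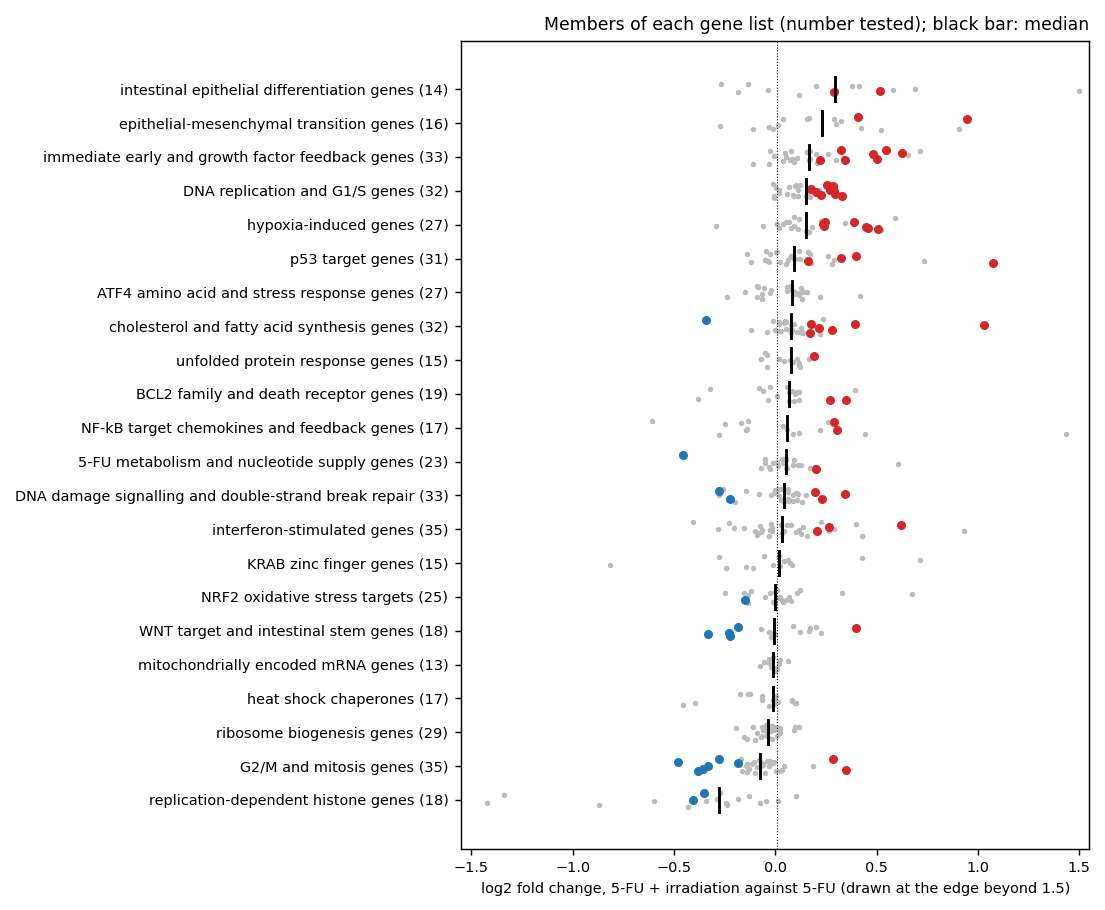
Log2 fold change with irradiation (x axis) of each member of 22 gene lists, with the number tested in brackets; red members rose, blue fell and grey did not pass the test, the black bar is the list's median and the dotted line that of all genes. G1/S, hypoxia-induced and immediate early genes hold red members to the right and no blue ones, and G2/M genes hold both.

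In no member of the p53, G1/S, immediate early or hypoxia lists was a loss called, by edgeR or by DESeq2. At an unadjusted p under 0.05 in edgeR, 1 p53 target and 0 members of the other lists were lower. Those higher were 11 of 31, 19 of 32, 21 of 33 and 15 of 27, in that order. Of all 21814 genes tested, 4714 had such a p in either direction.

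How the same genes behaved with irradiation in other cells was read from libraries outside the 6 compared. In sensitive DLD-1 cells, 423 of the 527 higher genes (80.3%) had a positive log2 fold change, against 50.1% of all genes, and 278 of the 312 lower genes (89.1%) had a negative one, against 49.9%. The sizes were smaller, with medians of 0.07 and -0.10. The genes were chosen by passing the test in resistant DLD-1, which favours larger sizes there, so these medians do not measure a weaker response. In sensitive DLD-1 cells, 3 of the 527 and 3 of the 312 were called in the same direction, where 14 genes (0.0642%) were called in all. In resistant HCT-116 cells, 75% of the higher and 75.2% of the lower genes had the same sign, against 53.7% and 46.1% of all genes, with medians of 0.09 and -0.07; 593 genes (2.58%) were called there. The libraries labelled resistant HT-29 held 44 of the 46 HCT-116 markers and 0 of the 5 HT-29 markers at 1 TPM or more. By these markers, taken from the sensitive libraries of the series, they go against their label. In them, 83.2% and 84.0% of the genes had the same sign, against 55.2% and 44.2% of all genes, and 3425 genes (14.4%) were called. Genes are not independent replicates, so these shares carry no test. In each of these 3 populations the median level of the higher genes was above, and that of the lower genes below, the 5-FU libraries in all 3 irradiated libraries. In sensitive HCT-116 cells the lower genes did the same, but the higher genes did not: their median in the irradiated libraries was 0.01, -0.06 and -0.01, which overlapped the 5-FU libraries at -0.02 to -0.03.

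**Figure D4:**
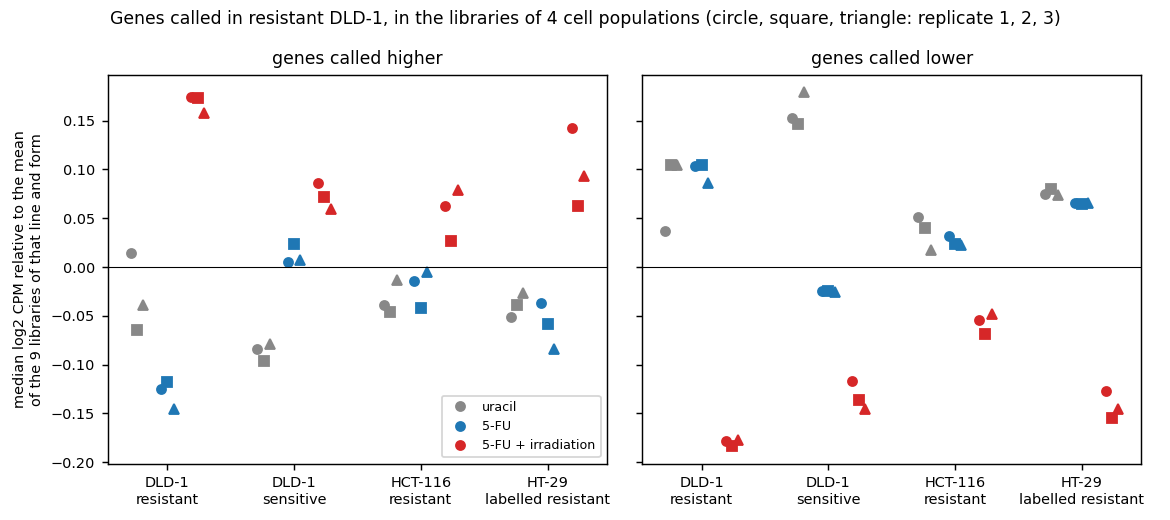
Median log2 CPM, relative to the mean of the 9 libraries of a line and form (y axis), of the 527 genes called higher (left) and 312 called lower (right) in resistant DLD-1, per library in 4 cell populations; grey is uracil, blue 5-FU and red 5-FU with irradiation, and circles, squares and triangles are replicates 1, 2 and 3. The resistant DLD-1 values are fixed by the choice of genes, and in the other 3 populations the red points lie above the blue ones on the left and below them on the right; among the uracil libraries of resistant DLD-1, replicate 1 is the highest on the left and the lowest on the right.

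Among the uracil libraries of resistant DLD-1, replicate 1 exceeded both others in 317 of the 527 higher genes (60.2%, against 42.6% of all genes) and was below both in 176 of the 312 lower genes (56.4%, against 37.1%). Its median difference from the others was 0.07 for the higher and -0.04 for the lower genes. The part of this library's state in the comparison was not tested; it was not among the libraries compared.

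Whether resistant and sensitive DLD-1 cells differed in their response was tested as an interaction in the same fit, and 9 genes (0.0413%) passed at an adjusted p of 0.01, or 74 (0.339%) at 0.05. The value was higher in resistant cells for 7 of the 9, or 77.8%, and for 54.5% of 11 when scaled by library size alone. LINC02086 fell by 0.73 in resistant and had a log2 fold change of -0.20 in sensitive cells, a difference of -0.52 ± 0.05 SE (adjusted p = 4.7e-05). In sensitive cells it was at 77.9, 76.9 and 72.8 TPM under 5-FU and at 66.7, 71.7 and 67.3 TPM with irradiation. TOP2A, the topoisomerase of replicating chromosomes, was at 174, 174 and 171 TPM against 172, 172 and 176 TPM in resistant cells, and at 201, 198 and 195 TPM against 248, 249 and 254 TPM in sensitive cells. Its responses differed by -0.31 (adjusted p = 0.0061). The other 7 genes were MUC13 (difference 0.49), E2F1 (0.41), SERINC2 (0.35), F2RL1, a protease-activated receptor (0.35), KANK2 (0.34), NFKB2 (0.34) and PCBP4 (0.33). With any of 11 of the 12 compared libraries left out, 1 gene stayed past the threshold, and without resistant irradiated replicate 3 it was 8 genes; the fit without resistant uracil replicate 1 called 213. At an adjusted p of 0.05 but not 0.01, the difference also passed for MCRIP1 (0.011), SLC2A1 (0.019), CENPF (0.026), AREG (0.028), PLK2 (0.028), CRELD2 (0.034), IL33 (0.04), OAS1 (0.04), IRF7 (0.04), CHAF1A (0.04), EMP1 (0.04) and ASPM (0.049), given as adjusted p.

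**Figure D5:**
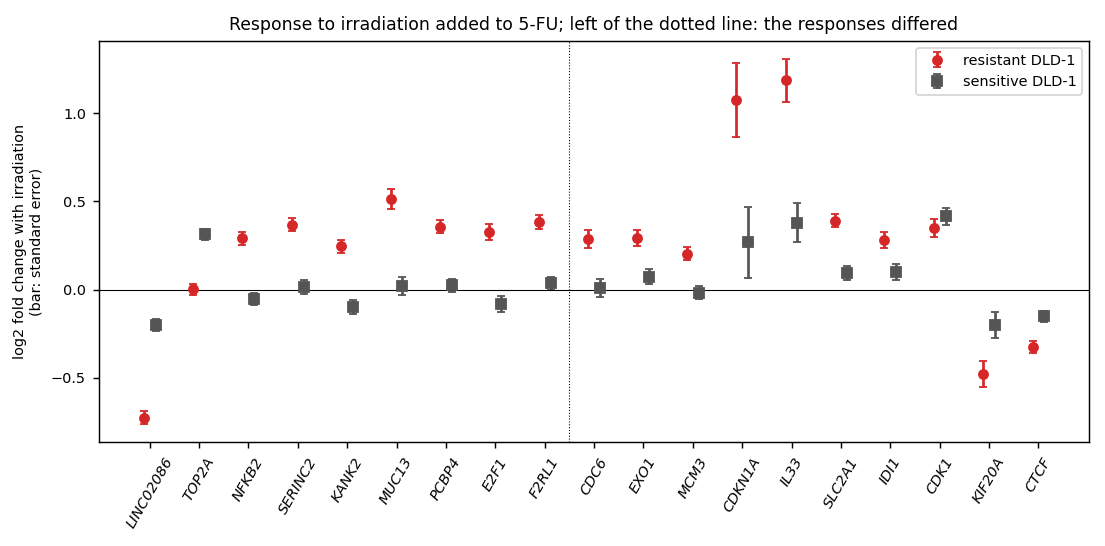
Log2 fold change with irradiation (y axis; bars are standard errors) in resistant (red circles) and sensitive (grey squares) DLD-1 cells for the 9 genes whose responses differed, left of the dotted line, and 10 others. TOP2A rose in sensitive cells alone, the other 8 on the left moved more in resistant cells, and CDK1 rose in both.

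Each line was irradiated at its own DL50, which the study's methods give as a lower dose for HCT-116 than for DLD-1, so line and dose cannot be told apart here. Set against resistant HCT-116 cells, the response of resistant DLD-1 differed in 197 genes (0.877%; 665, or 2.96%, at an adjusted p of 0.05), 154 of them (78.2%) with the higher value in DLD-1, or 58.8% of 233 when scaled by library size alone. LINC02086 (difference -1.18), HOXB8 (-0.73), EMP1, a membrane protein (0.77), CDCA7 (0.54) and DUSP5 (0.79) had the lowest p. Of the p53 targets 6 differed, all with the higher value in HCT-116: MDM2 had a log2 fold change of 0.37 there against -0.04 in DLD-1 (adjusted p of the difference 0.0026), RPS27L one of 0.53 against -0.04, FDXR 0.49 against 0.02, SESN1 0.62 against -0.12, BTG2 0.73 against 0.18, and RRM2B 0.41 against -0.05. The responses of CDKN1A, 1.08 in DLD-1 and 0.79 in HCT-116, were not shown to differ (difference 0.32 ± 0.15 SE, adjusted p = 0.3). Of the G1/S genes 9 differed with the higher value in DLD-1, among them MCM3, with 0.20 in DLD-1 and -0.14 in HCT-116 (difference 0.37, adjusted p = 0.0014). XRCC2 was at 0.34 against -0.19 (difference 0.56, adjusted p = 0.00025). With 1 library left out, 10 of 12 fits moved the count by more than 1.5-fold. It was 63 to 103 without any 1 of the 6 libraries under 5-FU or of DLD-1 irradiated replicates 1 and 2, 384 without HCT-116 irradiated replicate 3 and 322 without DLD-1 irradiated replicate 3.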

How the data were processed

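Per the labels and the study's methods, the authors turned alignments from the sequencing centre back into reads with Picard, checked them with FastQC 0.11.8, used Trimmomatic 0.36 for trimming and ran kallisto 0.44.0 against Ensembl transcripts of GRCh38.p13. The authors deposited estimated counts per gene, summed over transcripts and not normalized, in which reads that fit several transcripts are divided by estimate, so near-identical, overlapping and antisense genes are uncertain. The TPM values they deposited, kallisto's length-corrected share of transcripts, serve here for levels.

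Estimated counts were rounded and all 18 DLD-1 libraries (38957142 to 218518344 counts) were fitted together by group in edgeR 4.0.16 (R 4.3.3), with filterByExpr, TMM normalization and the quasi-likelihood test on 12 residual degrees of freedom. A gene was called where its p, adjusted by Benjamini-Hochberg, did not exceed 0.01. Every adjusted p in the text is of this quasi-likelihood test. It is from this fit unless a library is left out or the difference from HCT-116 is given. That difference was tested in a separate fit of 12 libraries, resistant DLD-1 and resistant HCT-116 under 5-FU with and without irradiation. A difference from it need not equal the gap between the responses printed for the 2 lines. Errors of log2 fold changes are standard errors. For the responses within resistant HCT-116 and the libraries labelled resistant HT-29, each was fitted with all libraries of its line label, as for DLD-1. On simulated counts for the 21814 genes tested, 53% of 100 genes changed 1.25-fold and 92% of 100 genes changed 2-fold were recovered, with 2 false calls. The changed genes were drawn only from those above a minimum mean CPM, and all other groups shared the same mean. Recovery of genes at lower levels is therefore not covered. A floor of 3 counts per library bounds folds against 0, and covers counting error only.

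Named genes were the 15 higher and 15 lower with the largest log2 fold change among called genes averaging 1 TPM or more in one of the groups, leading called members of each list, CDKN1A, MDM2, GDF15, CCNB1, PLK1 and TYMS in any case, and leading genes of the difference tests; other called list members, the remaining p53 targets and the HOXB genes are named for completeness. Members and lists were chosen with earlier results of these data known. The HOXB neighbourhood, the EGFR ligand, NKG2D ligand, cohesin, TGF-beta and CDK inhibitor lists and the fit without uracil replicate 1 were added after values were seen. Alternatives were DESeq2 1.42.0, other scalings, no filter, a replicate block, the 6 libraries alone, thinning of the deepest library and leaving out each library. Gene coordinates are of GENCODE 44 (GRCh38). Results for some called genes that the lists count are not reported here.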

Additional observations from a re-analysis of the deposited data

Results flagged for a closer look

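The genes listed here responded to irradiation differently in another population of cells, by the interaction test. Between resistant and sensitive DLD-1 cells (resistant minus sensitive, log2) the difference was -0.52 for LINC02086 and -0.31 for TOP2A. It was 0.49 for MUC13, 0.41 for E2F1, 0.35 for SERINC2, 0.35 for F2RL1, 0.34 for KANK2, 0.34 for NFKB2 and 0.33 for PCBP4. F2RL1 was at 79.4, 80.2 and 77.1 TPM under 5-FU and at 102, 106 and 101 TPM with irradiation in resistant cells, and at 80.1, 82.2 and 81.3 TPM against 84.8, 86.3 and 83.8 TPM in sensitive cells. Between resistant DLD-1 and resistant HCT-116 cells the difference was -1.18 for LINC02086, -0.73 for HOXB8, 0.77 for EMP1, 0.54 for CDCA7 and 0.79 for DUSP5. DUSP5 was at 74.2 TPM in resistant DLD-1 uracil replicate 1, above the irradiated libraries (64.4 to 69.0 TPM), and at 39.5 and 40.2 TPM in the other two.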

How the results depend on the processing

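No named gene that passed the test changed sign under any alternative run. Values near 0 that did not pass did: with a compared library left out, CCNB1 ran from -0.06 to 0.00088, TYMS from -0.05 to 0.0019, TOP2A from -0.0078 to 0.01, CD14 from -0.06 to 0.09 and PECAM1 from -0.45 to 0.15 (log2 fold change). The medians of the NRF2, WNT, mitochondrial, CDK inhibitor, fibroblast and endothelial lists also crossed 0, and that of the fibroblast markers was -0.26 without uracil replicate 1, against 0.45. For the leukocyte markers the median was 0.03, which is CD14 alone, and -2.94 to -2.42 with a compared library left out. CD14 itself ran from -0.06 to 0.09 in those fits, so these medians rest on other members. The filter on low counts was applied anew in each fit. Members tested can therefore differ between fits, also for the fibroblast markers, and such medians are not of like sets. The 839 genes became 1881 at an adjusted p of 0.05, 1322 with DESeq2, 1385 with no filter, 1419 with the 6 libraries alone, 1797 without uracil replicate 1, and 346 to 661 with a compared library left out. The 31 genes of at least 2-fold became 14 with DESeq2, 111 with no filter, 45 without uracil replicate 1 and 11 to 26 with a compared library left out. The 9 genes that differed between resistant and sensitive cells became 74 at 0.05, 139 with DESeq2, 209 with no filter, 213 without uracil replicate 1 and 1 to 8 with a library left out. The 197 that differed from HCT-116 became 665, 508 and 616 under the first 3 of these settings and 63 to 384 with a library left out; by library size alone 58.8% were higher in DLD-1, against 78.2%. The cause was not tested. Same-numbered libraries correlated at -0.02, 0.25 and 0.32 over 12773 genes, and differently numbered ones at -0.32 to 0.12. Numbers 2 and 3 thus correlated best with their own number, and number 1 did not. The labels do not say whether a number pairs samples, and the main fit did not pair them. With the replicate block the counts were 722, 23, 1 and 300, against 839, 31, 9 and 197. Of 96 called genes among 117 named, 47 kept their call with each of the 6 libraries left out, and none of the 96 changed sign. With 3 libraries a group and 12 residual degrees of freedom, small changes are recovered only in part, so a gene that did not pass is not shown to be unchanged.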

Other observations

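In a list of TGF-beta induced genes put together after the values were seen, 4 of 12 rose (33.3%, against 2.42% of all genes) and 0 fell. COL1A1, JUNB and PMEPA1 were among those that rose. At an unadjusted p under 0.05 in edgeR, 7 were higher and 0 lower, and 4714 of all 21814 genes tested had such a p. DESeq2 called 5 higher and 0 lower. Among the promoters of the hypoxia list, the letters ACGTG were within 250 bases before the start of 14 of 23 members and in 18.7% of all 27305 promoters. The letters of a CCAAT box were in 23 of 29 G2/M members and in 33% of all promoters. Of 24 immediate early genes with a promoter in the table none held the AP-1 letters searched (TGANTCA), which 6.60% of all promoters hold. Of 24 genes of the cholesterol list 1 held the sterol element searched (TCACCCCAC), as do 0.348% of all.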
